A study of Homo sapiens with 3 samples.

Results

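The folding machinery of the endoplasmic reticulum (ER) was examined through 10 genes chosen by name, HSPA5, HSP90B1, DNAJB11, MANF, CRELD2, PDIA3, PDIA4, PDIA6, CALR and CANX. No measured value entered the rule, but the list was drawn up with earlier results of these data known. All 10 were found among the 21726 genes of the deposited table, and all 10 were among the 9556 genes with enough counts to be tested. Expression was measured by RNA sequencing in PC3-Luc, a subline of the human PC3 prostate adenocarcinoma line that carries a luciferase gene brought in with pMSCV-luc. The control line carries a control hairpin, and the other lines, sh718 and sh720, each carry a short hairpin against CTHRC1, a secreted glycoprotein. All were grown for 24 h before RNA extraction, and each line is represented by 3 libraries. The sources used here do not say whether the lines are clones or pools, or whether the 3 libraries of a line come from separate cultures. A p-value therefore speaks of the spread among 3 libraries per line, and that spread may be technical. The test pools this spread over the 3 lines and draws it toward that of other genes.

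Proteins that are secreted or placed in membranes fold in the ER. HSPA5 (BiP) and HSP90B1 (GRP94) are its Hsp70 and Hsp90 chaperones, protein disulfide isomerases form and shuffle disulfide bonds, and the lectins calreticulin and calnexin hold glycoproteins until they are folded. When unfolded proteins accumulate, the sensors ATF6, IRE1 (ERN1) and PERK (EIF2AK3) start the unfolded protein response. ATF6 and XBP1 raise chaperone genes, partly through the ER stress response element (ERSE) in their promoters, while PERK acts through ATF4, which raises genes of amino acid supply and stress signalling. In secretory epithelia and the tumours that arise from them, this machinery handles the load of secreted protein.

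The promoters are shown because most of them share that element. RefSeq promoters (GRCh38.p14, 250 bases before to 50 after a gene start) were found for 9 of the 10 genes, PDIA3 being the gene without one. The ERSE was searched on both strands as CCAAT, then 9 bases of any kind, then CCACG, so that each match also holds a CCAAT box. The bases upstream of the start are given 5′ to 3′ for the 2 main chaperones, for CRELD2 and for MANF, the last having no match. Capitals mark the fixed letters of an ERSE, which read CGTGG and ATTGG where the element lies on the other strand.

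HSPA5, chr9:125241344-125241593, minus strand: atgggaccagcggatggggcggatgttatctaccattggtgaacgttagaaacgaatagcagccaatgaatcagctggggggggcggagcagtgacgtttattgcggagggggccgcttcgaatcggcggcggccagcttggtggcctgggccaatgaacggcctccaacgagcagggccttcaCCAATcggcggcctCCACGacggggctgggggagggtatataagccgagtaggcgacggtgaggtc
HSP90B1, chr12:103930160-103930409, plus strand: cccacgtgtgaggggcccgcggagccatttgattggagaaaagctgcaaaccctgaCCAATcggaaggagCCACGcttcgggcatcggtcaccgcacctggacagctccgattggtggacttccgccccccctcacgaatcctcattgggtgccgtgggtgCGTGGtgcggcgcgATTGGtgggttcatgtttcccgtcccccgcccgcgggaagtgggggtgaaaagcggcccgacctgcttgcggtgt
CRELD2, chr22:49918384-49918633, plus strand: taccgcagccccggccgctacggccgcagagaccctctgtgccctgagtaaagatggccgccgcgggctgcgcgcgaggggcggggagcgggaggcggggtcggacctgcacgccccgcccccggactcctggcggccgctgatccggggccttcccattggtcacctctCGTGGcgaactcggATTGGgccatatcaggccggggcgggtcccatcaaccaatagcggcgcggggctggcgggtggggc
MANF, chr3:51385041-51385290, plus strand: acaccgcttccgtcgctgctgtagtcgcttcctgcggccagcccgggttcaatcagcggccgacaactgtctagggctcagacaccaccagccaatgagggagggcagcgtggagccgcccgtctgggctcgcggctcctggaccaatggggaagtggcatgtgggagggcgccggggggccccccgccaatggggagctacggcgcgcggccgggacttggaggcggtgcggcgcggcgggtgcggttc

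Of the 9 genes, 6 (66.7%) had an ERSE, against 25 of 27305 genes with a promoter in the table (0.0916%). By promoter window, of which a gene can have several, 27 of 35116 held it (0.0769%). The element was defined on promoters of ER chaperone genes, HSPA5 among them, so its presence here is background and not a finding of these libraries. The matches of PDIA6, CALR and CANX were the following, each written in the sense of the element. Each distance is that of the base of the match farthest upstream of the start, whichever strand the element is on.

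PDIA6, beginning 86 bases before the start: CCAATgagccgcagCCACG
CALR, beginning 225 bases before the start, other strand: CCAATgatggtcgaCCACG
CANX, 151 bases before the start of 1 of its 3 windows with the element: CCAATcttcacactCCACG

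A CCAAT box, searched on both strands and counted also within an ERSE, was in all 9 genes and in 39.7% of all genes with a promoter. The second ER stress element, ERSE-II (ATTGG, any 1 base, CCACG), was in no member promoter and in 0.0541% of all 35116 promoter windows. The letters TGACGTGG, the core of an XBP1 and ATF6 binding element, and TGATGCAA, an ATF4 element, were in no member promoter. They were in 0.729% and 0.866% of all windows. No match says only that these letters are not in the window.

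Library totals ran from 883663 to 1108960 counts. The targeted gene CTHRC1 was at 116 ± 16.4 counts per 1000000 counts, scaled by TMM (CPM; SD, n = 3 libraries) in control, 1.81 ± 0.672 in sh718 and 16 ± 5.48 in sh720, the sums of counts being 331, 5 and 47. Of the epithelial and PC3 markers all 6 were listed, with VIM at 2371 CPM and KRT18 at 634 in control and CDH1 at 1.98. Of these, KRT19 rose by 0.39 and EPCAM fell by 1.39 in sh718, and KRT8, KRT18 and VIM rose by 0.46, 0.22 and 0.31 in sh720 (log2, edgeR). Of 6 luminal androgen-responsive prostate markers 3 were listed, with 16 to 218 counts over the 9 libraries, and KLK2, KLK3 and FOLH1 were not listed. Of 5 leukocyte markers PTPRC and CD14 were listed, with 6 and 4 counts. Of 6 fibroblast and endothelial markers 4 were listed, with 1 to 266 counts, and PECAM1 rose by a log2 of 1.03 in sh718 (edgeR adjusted p 2.63e-04), while the other 2 were not listed. The part of these markers in the results was not tested. Within every line the libraries differed by more than sampling noise, with a chi-square per degree of freedom of 1.28 to 2.25, the pairs with sh718 library 2 giving 2.21 and 2.25.

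Summed over the 10 genes, the level was highest in sh718, intermediate in control and lowest in sh720. It was 3833 ± 254 CPM in control (SD, n = 3), 5101 ± 222 in sh718 and 2894 ± 9.29 in sh720. Without HSPA5 and HSP90B1, the sums were 1807 ± 91.2, 2064 ± 98.4 and 1414 ± 63.5. In sh718 against control, 5 of 10 genes rose and 1 fell, where 9.56% of all tested genes rose and 10.8% fell (20.4% either way). In sh720 against control, none rose and 5 fell, where 3.43% of all tested genes rose and 3.42% fell (6.85% either way). In sh718 against sh720, 9 of 10 were higher and none lower, where 12.3% of all tested genes were higher and 13% lower (25.3% either way). A change of a given size is called more readily in a gene with more counts. The members had 327 to 12703 over the 9 libraries, and the shares of all tested genes were not matched for counts. At an unadjusted p under 0.05, the members past it were 7, 7 and 10, against 31.6%, 18.7% and 35.3% of all tested genes. DESeq2 called 4 members higher and 1 lower in sh718, where it called 4.68% and 5.86% of all genes. In sh720 it called 0 higher and 4 lower, against 1.85% and 2.32% of the 7147 genes to which it gave an adjusted p. Between the hairpin lines it called 9 higher and 0 lower, against 6.61% and 6.92%. The median changes of the 10 genes were 0.45, -0.38 and 0.68 on the log2 scale. The medians of all tested genes lay within 0.00237 of 0, near where TMM scaling places the bulk of genes. Without regard to sign, the median change of all tested genes was 0.282, 0.202 and 0.294. The comparisons against control use the same control libraries and are not independent of each other.

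**Figure D1:**
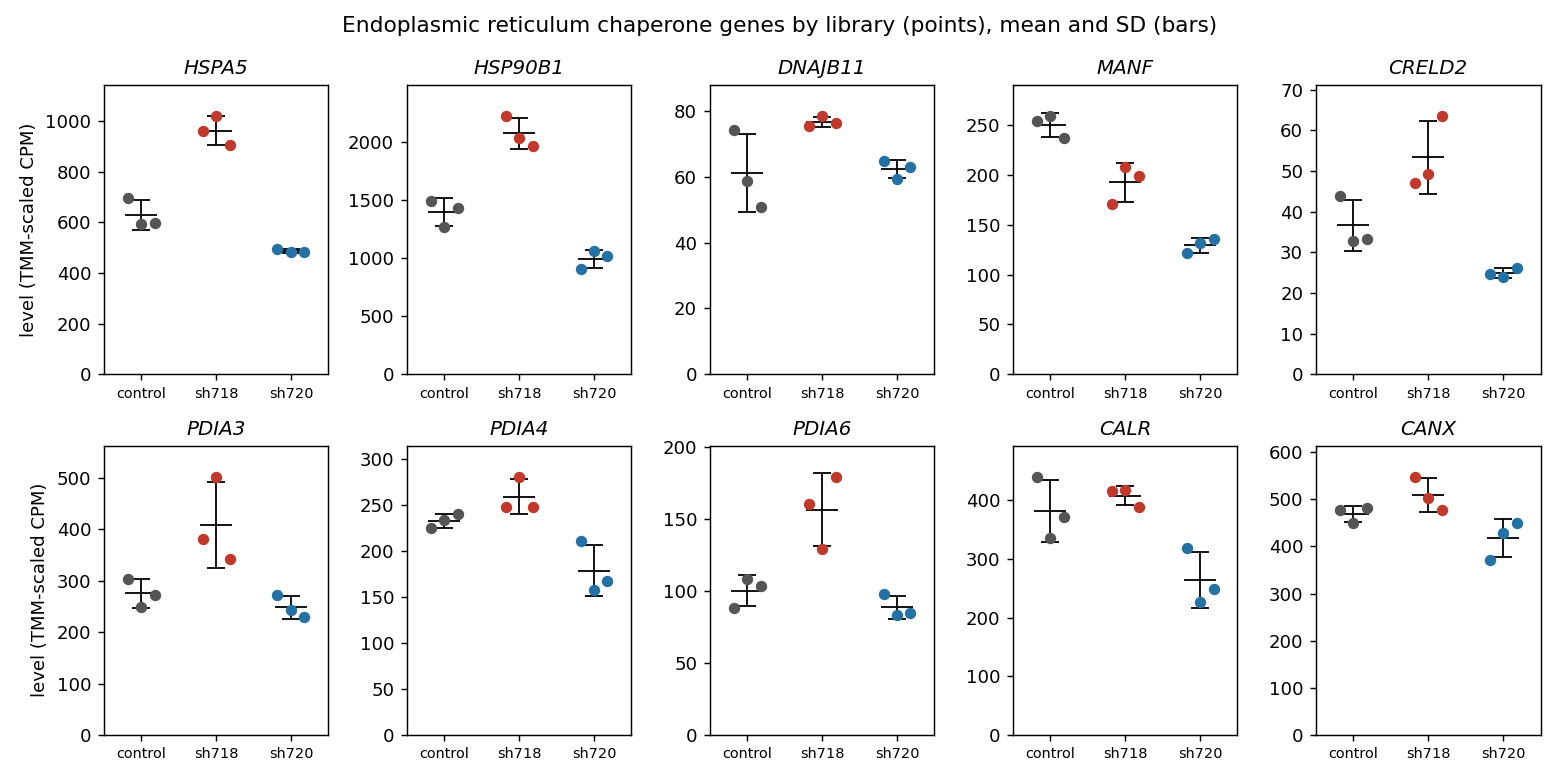
Levels of the 10 genes in TMM-scaled CPM on axes that start at 0, with 1 point per library and bars for the mean and SD of 3 libraries per line. In HSPA5, HSP90B1 and CRELD2 every sh718 library lies above and every sh720 library below all control libraries, while MANF is highest in control (250 CPM) and lowest in sh720 (130 CPM).

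The chaperone HSPA5, which binds unfolded chains and holds the stress sensors inactive, had levels of 696, 594 and 598 CPM in the control libraries, 963, 1021 and 906 in sh718, and 494, 481 and 482 in sh720. The lines did not overlap. It rose in sh718 by a log2 of 0.62 (edgeR adjusted p 9.35e-11, SE 0.07), or 1.53-fold, and fell in sh720 by 0.37 on the log2 scale (adjusted p 1.75e-04, SE 0.07). The direct difference between the hairpin lines was 0.99 (adjusted p 1.25e-18, SE 0.07), or 1.98-fold.

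HSP90B1, the ER form of Hsp90, which completes the folding of integrins and Toll-like receptors among others, had levels of 1493, 1266 and 1430 CPM in control, 2224, 2031 and 1965 in sh718, and 908, 1061 and 1015 in sh720. These too did not overlap. The log2 change was 0.57 in sh718 (edgeR adjusted p 9.99e-11, SE 0.06) and -0.49 in sh720 (adjusted p 5.31e-08, SE 0.07). Between the hairpin lines it differed by 1.06 (adjusted p 1.18e-21, SE 0.07), or 2.08-fold.

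DNAJB11 (ERdj3), a J-domain protein that delivers substrates to HSPA5, was the member with no call in any comparison. Its libraries stood at 74.3, 58.6 and 50.9 CPM in control, 75.4, 78.6 and 76.3 in sh718, and 64.7, 59.3 and 63.0 in sh720. The sh718 libraries lay above all others, while sh720 fell within the range of control. Its log2 change was 0.34 in sh718 (95% interval 0.04 to 0.64, edgeR adjusted p 0.107) and 0.04 in sh720 (-0.27 to 0.35, adjusted p 0.927). Its value in sh718 was 0.49 and called without control library 1 (adjusted p 0.0354), and 0.21 without control library 3 (adjusted p 0.450). Its value in sh720 turned to -0.09 without control library 3 (adjusted p 0.859). It had 173 to 214 counts per line.

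CRELD2, an ER protein with disulfide isomerase activity that is induced by ER stress, was the least counted member, with 74 to 149 counts per line. Its levels were 43.9, 32.7 and 33.3 CPM in control, 47.1, 49.4 and 63.6 in sh718, and 24.7, 23.9 and 26.2 in sh720, without overlap. The log2 change was 0.55 in sh718 (edgeR adjusted p 0.0276, SE 0.19) and -0.54 in sh720, which was not called (adjusted p 0.138, SE 0.22). Between the hairpin lines it was 1.097 higher in sh718 (adjusted p 1.91e-05, SE 0.20). The call in sh718 was lost with DESeq2 (adjusted p 0.185), without a count filter (0.0535) and without control library 2, control library 3 or sh718 library 3 (0.101, 0.123 and 0.204).

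MANF, an ER-resident and secreted factor that binds HSPA5, was the member lower in both hairpin lines. Its libraries stood at 254, 259 and 237 CPM in control, 171, 208 and 199 in sh718, and 121, 132 and 136 in sh720. All 3 lines were apart, with control highest. It fell by 0.37 in sh718 on the log2 scale (edgeR adjusted p 0.00405, SE 0.10) and by 0.94 in sh720 (adjusted p 1.29e-10, SE 0.10). The sh718 line nonetheless lay 0.57 above sh720 (adjusted p 3e-05, SE 0.11), the same direction as the other 9 members.

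MANF lies on chromosome 3 (GRCh38, 51385047 to 51389397, plus strand), in a stretch where many genes were lower. Of the 92 other tested genes that start within 5 Mb of its start, 34 fell and 0 rose in sh718, with a median log2 change of -0.39. In sh720, 24 fell and 0 rose, also with a median of -0.39. In sh720, 3 of the 92 lay below the -0.94 of MANF, and in sh718 47 lay below its -0.37. Between the hairpin lines the median of these genes was -0.03, with 8 higher and 9 lower, against 0.57 for MANF. Of all tested genes, 10.8% fell and 9.56% rose in sh718, and 3.42% fell and 3.43% rose in sh720. Between the hairpin lines, 12.3% were higher and 13% lower. Copy number was not measured, and the part of this stretch in the lower MANF level was not tested. Within 1 Mb of MANF, 18 other genes were tested, with medians of -0.36 in sh718 and -0.41 in sh720. Of these, 6 and 5 fell and 0 rose. Around the other 9 members, the tested genes within 1 Mb numbered 8 to 33, with medians of -0.19 to 0.29 in sh718 and -0.15 to 0.25 in sh720. Of the members that rose in sh718, HSPA5 had 3 of 11 such neighbours higher, PDIA6 3 of 10 and HSP90B1 2 of 9. These had 0 lower, while PDIA3 had 1 higher and 2 lower of 18, and CRELD2 none of either. The part of these neighbours was not tested.

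**Figure D2:**
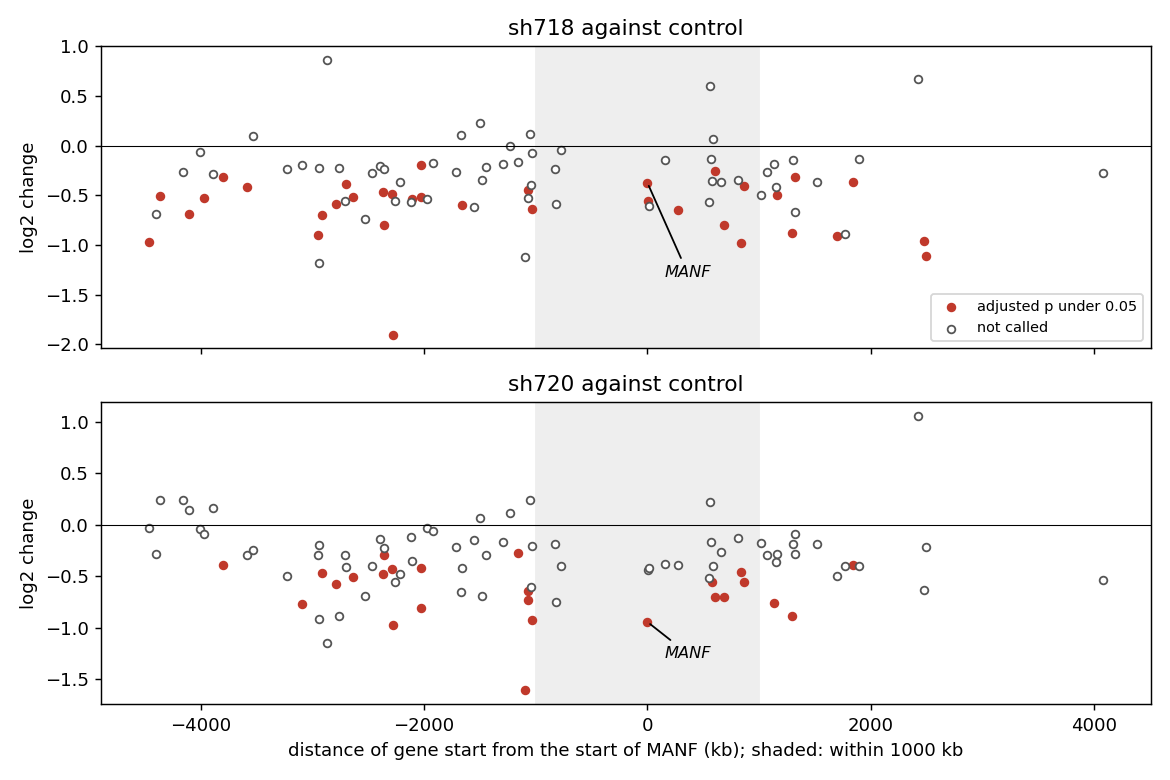
Log2 change against control of each tested gene within 5 Mb of MANF, by distance of its start from that of MANF in kb, in sh718 (top) and sh720 (bottom), with filled points for adjusted p under 0.05. Most genes lie below 0 in both lines, and MANF at -0.94 is among the lowest in sh720 but near the middle, at -0.37, in sh718.

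The protein disulfide isomerases differed in which comparison against control passed the test. PDIA3 (ERp57), which acts on glycoproteins held by calreticulin and calnexin, had 304, 249.2 and 273 CPM in control, 382, 503 and 342 in sh718, and 272, 242 and 230 in sh720. Every sh718 library lay above control, and sh720 overlapped it. PDIA3 rose in sh718 by 0.57 (edgeR adjusted p 4.07e-06, SE 0.10), or by 0.39 without sh718 library 2 (adjusted p 0.00202), and its value in sh720 was -0.15 (adjusted p 0.459).

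PDIA6 (P5), an isomerase that also binds the stress sensor IRE1, had 87.8, 108 and 104 CPM in control, 160, 129 and 179 in sh718, and 97.6, 83.2 and 84.4 in sh720. As in PDIA3, sh718 stood above control while sh720 overlapped it. PDIA6 rose in sh718 by 0.64 (edgeR adjusted p 7.93e-05, SE 0.13) and lay at -0.18 in sh720 (95% interval -0.46 to 0.10, adjusted p 0.531).

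PDIA4 (ERp72), an isomerase found in complexes with HSPA5 and HSP90B1, had 225, 233 and 240.5 CPM in control, 248.6, 281 and 248 in sh718, and 211, 158 and 168 in sh720. Its lines did not overlap. The value in sh718 was 0.15 (95% interval -0.04 to 0.35, edgeR adjusted p 0.284), and in sh720 it fell by 0.38 on the log2 scale (adjusted p 0.00963, SE 0.10). That call was lost with DESeq2 (adjusted p 0.0627) and without control library 3, sh720 library 2 or sh720 library 3 (0.0613, 0.113 and 0.0805). Between the hairpin lines, PDIA3, PDIA6 and PDIA4 were higher in sh718 by 0.73, 0.82 and 0.54 (SE 0.10, 0.13 and 0.10, adjusted p 1.29e-08, 6.37e-07 and 2.52e-05).

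Neither lectin chaperone was called in sh718. CALR (calreticulin), the soluble lectin and a calcium store of the ER, had 440, 336 and 371 CPM in control, 416, 418 and 389 in sh718, and 319, 227 and 248 in sh720. The sh718 libraries overlapped control and the sh720 libraries lay below it. CALR was at 0.09 in sh718 (95% interval -0.09 to 0.27, edgeR adjusted p 0.516) and fell by 0.53 in sh720 (adjusted p 2.9e-05, SE 0.09).

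CANX (calnexin), the membrane-bound lectin, had 476, 449 and 481 CPM in control, 548, 503 and 477 in sh718, and 372, 429 and 450 in sh720. Both hairpin lines overlapped control. Its log2 change was 0.12 in sh718 (95% interval -0.04 to 0.27, edgeR adjusted p 0.310) and -0.17 in sh720 (-0.33 to -0.01, adjusted p 0.224). The difference between the hairpin lines was 0.62 for CALR (adjusted p 2.46e-07, SE 0.09) and 0.29 for CANX (adjusted p 0.00422, SE 0.08), a call that CANX lost once sh720 library 1 was left out (0.21, adjusted p 0.0727).

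**Figure D3:**
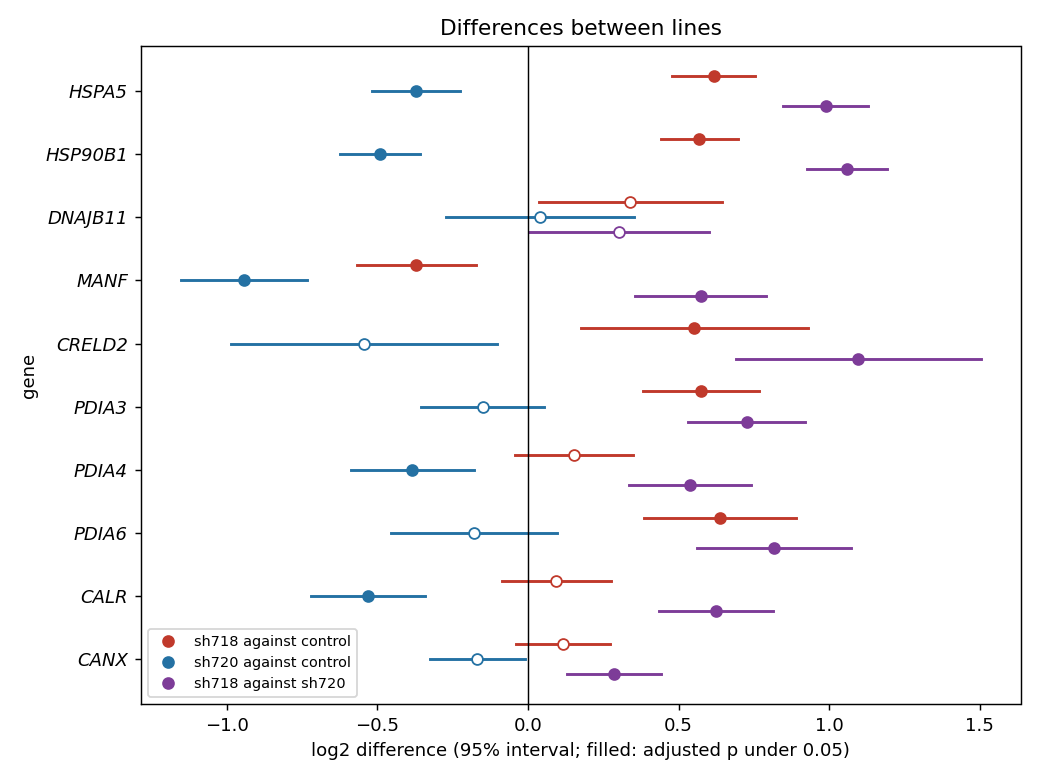
Log2 difference of each of the 10 genes in each hairpin line against control and in sh718 against sh720, with 95% intervals, filled where the adjusted p was under 0.05. The direct differences run from 0.29 for CANX to 1.097 for CRELD2 and all lie above 0, with DNAJB11 the member not called.

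Counting libraries rather than calls, 7 members had every sh718 library above all control libraries and 1 had every one below, where 16.3% and 17.1% of all tested genes did so. For sh720, 6 members had every library below control and 0 above, where 11.9% and 11.6% did so. All 10 had every sh718 library above every sh720 library, where 18.2% of all tested genes did so.

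Per kilobase of merged exons of protein-coding transcripts (GENCODE v29), the control level was highest for HSP90B1, at 488 ± 40.9 CPM per kb (SD, n = 3). MANF (217 ± 10.3) and CALR (201 ± 27.9) followed and did not differ beyond their spread. HSPA5 stood at 161 ± 14.8 and CANX at 105 ± 3.92 CPM per kb. PDIA4 (80.3 ± 2.64) and PDIA3 (73.9 ± 7.38) were alike within their spread, as were PDIA6 (28.7 ± 3.07), DNAJB11 (25.6 ± 4.98) and CRELD2 (23.2 ± 3.999). The sources used here do not say whether reads cover whole transcripts or their ends, and this order holds only if they cover them evenly.

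The counts of the related lists that follow are to be read against the shares over all tested genes, 9.56% higher and 10.8% lower in sh718 and 3.43% and 3.42% in sh720. Of 14 listed Hsp70 and Hsp90 co-chaperone genes, 10 were tested, of which 2 rose in sh718 and 1 fell in sh720 (medians 0.11 and -0.05). SDF2L1, which keeps HSPA5 and DNAJB11 substrates soluble, rose in sh718 by 0.83 (edgeR adjusted p 1.49e-07) and fell in sh720 by 0.44 (adjusted p 0.0426). DNAJC3, a J-domain co-chaperone of HSPA5, rose by 0.69 in sh718 (adjusted p 9.72e-05) and lay at 0.11 in sh720. SEC63, CNPY2 and DNAJC1 were called in neither line.

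Among 12 tested disulfide isomerases and oxidases outside the 10 genes, 2 rose and 1 fell in sh718 and 1 rose in sh720. QSOX1, a sulfhydryl oxidase, rose in both, by 0.33 (edgeR adjusted p 0.0343) and 0.64 (adjusted p 1.29e-05). The ER peroxiredoxin gene PRDX4 rose by 0.47 in sh718 (adjusted p 2.04e-05) and lay at -0.11 in sh720. The gene that fell in sh718, TMX2 (-0.66), was picked out after its values were seen. TMX1, ERP29 and the oxidase gene ERO1A were called in neither line.

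Of 17 tested sensors and factors of the unfolded protein response, 2 rose and 2 fell in sh718, near the shares of all tested genes there, and 2 rose in sh720. ATF6 rose in sh718 by 0.46 (edgeR adjusted p 0.0122) and lay at 0.04 in sh720. XBP1 lay at -0.04 in sh718 and rose in sh720 by 0.45 (adjusted p 0.00963). The phosphatase subunit gene PPP1R15A rose in sh718 by 0.40 (adjusted p 0.0332) and EIF2S1 fell by 0.31 (adjusted p 0.0272). ATF4 was at -0.12 and 0.26 against control, without a call. The other genes called against control, picked out after their values were seen, were PPP1R15B (-0.75 in sh718) and CREB3L1 (1.03 in sh720). In sh718 against sh720, 2 of the 17 were higher and 5 lower, where 12.3% and 13% of all tested genes were. Among them ATF4 lay at -0.38 (edgeR adjusted p 0.00323), XBP1 at -0.49 (0.00119) and ATF6 at 0.42 (0.0179).

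Of 13 tested targets of ATF4 and CHOP, 9 rose and 0 fell in sh720 (median 0.67), and 1 rose and 3 fell in sh718 (median -0.15). TRIB3, a stress-induced pseudokinase gene, had a log2 change of -0.54 in sh718 and 1.40 in sh720, and CEBPB of -0.82 and 0.71. STC2 rose by 1.18, SLC3A2 by 0.67 and PHGDH by 0.42 in sh720, and these 3 were not called in sh718. The others called in sh718, picked out after their values were seen, were ATF5 (0.46) and PSAT1 (-1.58).

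Of 19 tested cytosolic and mitochondrial heat shock chaperone genes, 10 rose and 2 fell in sh718 (median 0.26), and 1 rose and 9 fell in sh720 (median -0.21). HSP90AA1 changed by 0.35 and -0.36, HSP90AB1 by 0.46 and -0.22, and HSPA8 by 0.43 and -0.63, all called by edgeR. The mitochondrial Hsp70 gene HSPA9 did the reverse, at -0.48 and 0.26, and the chaperonin gene CCT2 fell in both, at -0.28 and -0.30. Heat shock genes also respond to handling of cells, and its part in these results was not tested.

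**Figure D4:**
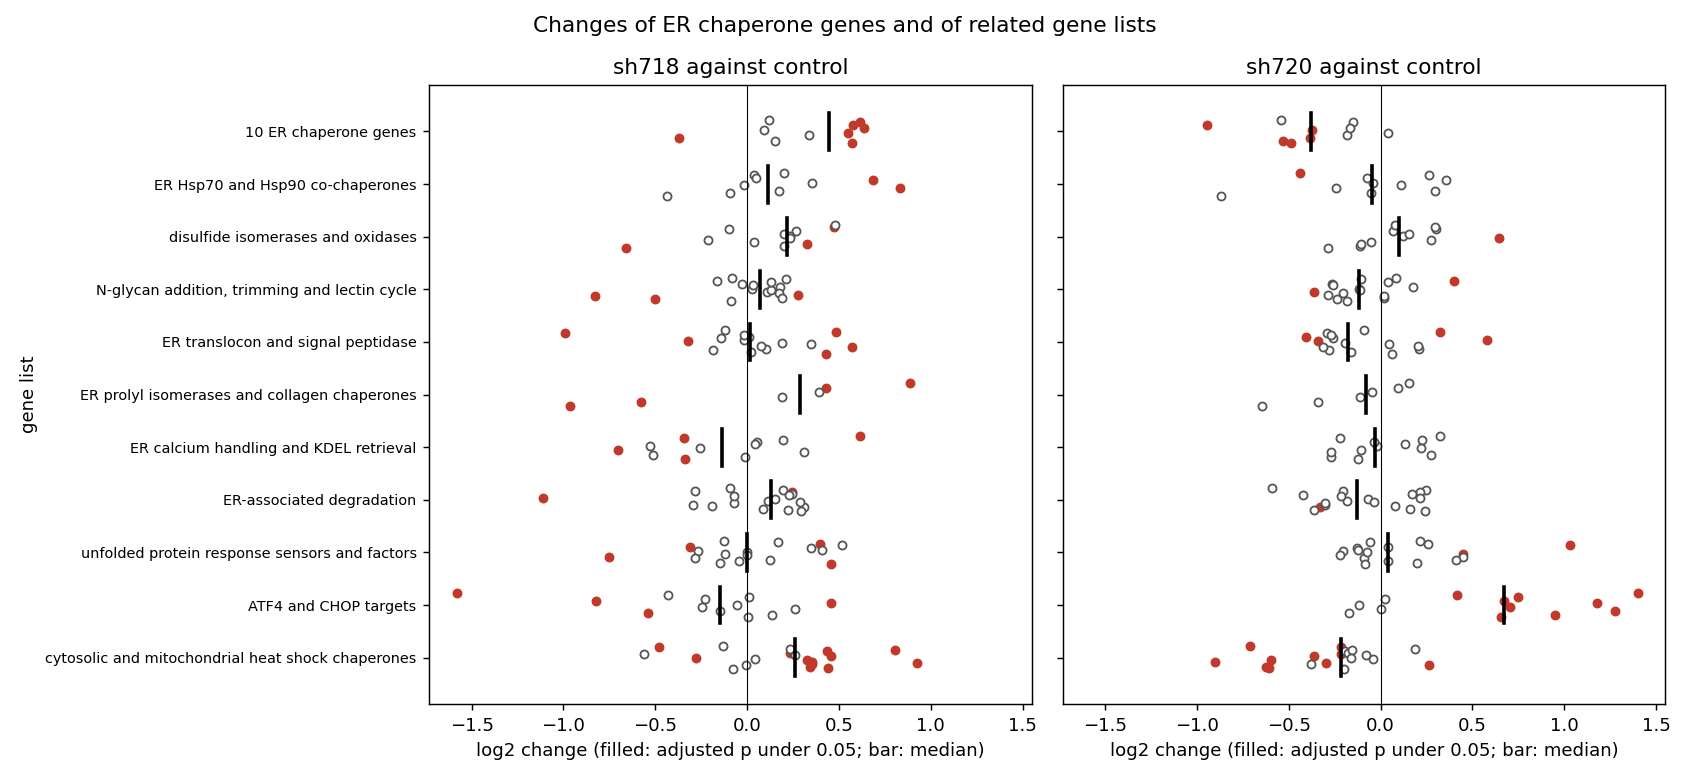
Log2 change against control of every tested gene in 11 sets, the 10 ER chaperone genes at the top, with a bar at each median and filled points for adjusted p under 0.05, in sh718 (left) and sh720 (right) on the same axis. The ER and heat shock chaperones have medians of 0.45 and 0.26 in sh718 and -0.38 and -0.21 in sh720, and the ATF4 and CHOP targets -0.15 and 0.67.

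Of 13 tested genes with the element, 6 were members and 7 were not. Of the 6, 4 rose in sh718, 3 fell in sh720 and 6 were higher in sh718 than in sh720. Of the 7, 2 rose and 1 fell in sh718, 1 rose in sh720, and 2 were higher and 1 lower between the hairpin lines. Of all tested genes, 9.56% rose and 10.8% fell in sh718, and 3.43% and 3.42% in sh720. Between the hairpin lines 12.3% were higher and 13% lower. With only 7 genes, nothing is read from the counts of the others. The medians between the hairpin lines were 0.90 for the members and -0.01 for the others. The members were chosen with earlier results of these data known, and the part of the element in the changes was not tested. The 7 others, named after their values were seen, were SERP1, SYNPO, EIF2A, FICD, TMEM120A, TRIM5 and XBP1. SERP1, which protects nascent membrane proteins under ER stress, lay at 0.43 in sh718 (edgeR adjusted p 8.03e-04) and -0.05 in sh720, and FICD, which modifies HSPA5, at 0.00 and 0.22, uncalled. The 3 members with a promoter but no ERSE in the window were MANF and PDIA4, which were 0.57 and 0.54 higher in sh718 than in sh720, and DNAJB11, which was not called (0.30, adjusted p 0.139).

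Over the 9 libraries, the log2 level of HSPA5 was followed most closely among the members by HSP90B1 (Pearson r 0.972), CRELD2 (0.932) and PDIA3 (0.922), and least by MANF (0.457). Among other tested genes, the highest values were those of COX7A2 (0.991), EMP3 (0.990), DYNLL1 (0.984), STIP1 (0.984) and MAGED2 (0.982). These values describe 9 libraries in 3 lines and share the difference between lines.

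Reads of genes with near copies or overlapping genes may have been split or left out, since the sources used here do not give the counting and strand settings. The listed pseudogenes HSP90B2P, HSP90B3P, PDIA3P1 and CALR4P had 3 to 17 counts over all libraries. C12orf73, which overlaps HSP90B1 on the other strand, had 331 counts against 12703 for HSP90B1, TBCCD1 had 52 against 572 for DNAJB11, and CATSPER2P1 had 27 against 2667 for PDIA3. DNAJB11 is also overlapped on its own strand by the protein-coding gene AC068631.2, which was not listed. The part of this overlap in the DNAJB11 counts was not tested.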

How the data were processed

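RNA from 9 PC3-Luc libraries (3 lines, 3 libraries each) was sequenced as single reads of 75 bp, per the labels' protocols. The authors deposited raw counts per Ensembl gene. The submitters' processing notes name Trim Galore and GRCh38. The sources used here do not name an aligner, a counter, a strand setting or an annotation release. Each count column was assigned to the line in its name. A gene was kept if the mean over lines of its count sum per line reached 20 (9556 of 21726). Testing used edgeR 4.0.16 under R 4.3.3 with TMM, glmQLFit and glmQLFTest on all 9 libraries, with Benjamini-Hochberg adjustment per comparison over all tested genes and a call at an adjusted p under 0.05. Every adjusted p is from this test unless DESeq2 (1.42.0) is named. The SE is the log2 change divided by the square root of the F statistic. It rests on the pooled spread and not on the libraries of 1 gene alone. The edgeR and DESeq2 fits were tested on simulated counts. The 10 genes and the gene lists were chosen with earlier results of these data known. Named from each list were at most 5 members, first those called in both comparisons against control and then the most abundant tested ones, and from all tested genes the 5 most correlated with HSPA5. Genes named outside this rule are marked as such. Positions are from GENCODE v29 (GRCh38) and promoters from RefSeq. Alternatives were DESeq2, RLE scaling, no filter, leaving out each library, only the lines compared, and a replicate block.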

Additional observations from a re-analysis of the deposited data

Results flagged for a closer look

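For 9 of the 10 genes, the change against control differed between the hairpin lines by the direct test of sh718 against sh720 (edgeR, adjusted p under 0.05), with every sh718 library above every sh720 library. By the same test, 12.3% of all tested genes were higher and 13% lower, and 18.2% had every sh718 library above every sh720 library. The log2 differences were 1.1 for CRELD2, 1.06 for HSP90B1, 0.99 for HSPA5, 0.82 for PDIA6, 0.73 for PDIA3, 0.62 for CALR, 0.57 for MANF, 0.54 for PDIA4 and 0.29 for CANX. Both lines carry hairpins against CTHRC1, which was at 1.81 CPM in sh718 and 16 CPM in sh720. The cause of the difference between the lines was not tested.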

How the results depend on the processing

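The log2 values of the 10 genes under 14 alternatives kept their direction and their side of the threshold in 134 of 140 cases for sh718 against control, 135 of 140 for sh720 against control and 139 of 140 for sh718 against sh720. The exceptions were those of CRELD2, DNAJB11, PDIA4 and CANX given with their values above, among them DNAJB11 in sh720 at -0.092 without control library 3, its values with a library left out running from -0.092 to 0.19. DESeq2 called fewer of all tested genes, 1007 in sh718, 298 in sh720 and 1293 between the hairpin lines, against 1947, 655 and 2419 with edgeR, and the cause was not tested. With each library left out, these counts ran from 1506 to 1916, 466 to 706 and 1924 to 2406, the members called higher from 4 to 6, 0 to 0 and 8 to 9, and those called lower from 1 to 1, 4 to 5 and 0 to 0. With a replicate block of library numbers, 1977, 680 and 2425 genes were called and no call of a member changed. Same-numbered libraries did not deviate together (correlations of -0.0127 to 0.0219, against -0.0434 to 0.0413 for different numbers). No pairing by number was seen, but sampling noise at this depth may hide a weak one. Without TMM, chosen as an alternative after seeing the data, the log2 ratios of mean CPM kept the sign of every member in every comparison, and all 30 moved by less than the spread between libraries. Depth limits CRELD2 and DNAJB11 most, with 74 to 214 counts per line.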

Other observations

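Other lists of the secretory pathway are given beside the shares of all tested genes called by edgeR, 20.4% in sh718 and 6.85% in sh720, and nothing is read from counts near those shares. Of 16 tested genes of the translocon and signal peptidase, 5 were called in sh718 (3 higher, 2 lower) and 4 in sh720 (2 higher, 2 lower), with medians of 0.02 and -0.17. SEC61G, a subunit of the channel through which chains enter the ER, rose in both lines, by 0.43 (edgeR adjusted p 6.81e-05) and 0.58 (adjusted p 1.88e-07), while SSR4 fell by 0.34 and TRAM1 rose by 0.33 in sh720. The rest, picked out after their values were seen, were SEC61A1 (0.48), SEC11C (0.57), SPCS1 (-0.32, within 5 Mb of MANF in the stretch of chromosome 3 described above) and SRPRA (-0.99) in sh718, and SSR3 (-0.41) in sh720. SEC61B and SSR2 were called in neither line. Of 16 genes of N-glycan addition and the lectin cycle, 3 were called in sh718 (1 higher, 2 lower) and 2 in sh720 (1 each way). LMAN2 rose by 0.28 in sh718, and the catalytic subunits of the oligosaccharyltransferase, STT3A (-0.50) and STT3B (-0.83), picked out after their values were seen, were lower there. MLEC, the lectin malectin, fell by 0.36 in sh720 and LMAN1, a cargo receptor leaving the ER, rose by 0.40, while RPN2 and DAD1 were called in neither line.

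Of 12 tested genes of ER calcium handling and KDEL retrieval, 1 rose and 3 fell in sh718 and none was called in sh720 by edgeR. CALU (calumenin) rose by 0.62 in sh718, SDF4 and the KDEL receptor gene KDELR1 each fell by 0.34, and RCN1, picked out after its values were seen, was at -0.70, while KDELR2 lay at 0.04 and -0.02. ATP2A2 was called in neither line. Of 6 prolyl isomerases and collagen chaperones, FKBP14 rose by 0.89 and FKBP9 by 0.43, and SERPINH1 fell by 0.97 and CRTAP by 0.58 on the log2 scale in sh718, with no call in sh720. FKBP10 was called in neither line. Of 18 genes of ER-associated degradation, 2 were called in sh718 (1 each way) and 1, lower, in sh720. VCP, the ATPase that extracts proteins from the membrane, rose by 0.25 in sh718 (adjusted p 0.0436) and fell by 0.33 in sh720 (adjusted p 0.0191). HERPUD1, DERL1, UBE2G2 and FAF2 were called in neither line. SELENOK, picked out after its values were seen, was at -1.11 in sh718 and lies in the same stretch of chromosome 3, within 5 Mb of MANF.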
